A study of Mus musculus with 12 samples.

Results

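Peroxisome proliferator-activated receptor alpha (PPAR alpha) is a nuclear receptor of hepatocytes that is activated by fatty acids. It binds DNA as a pair with the retinoid X receptor RXR alpha and switches on genes for fatty acid uptake, transport and oxidation, and in liver it is best known for its part in the response to fasting. The genes described here are Ppara and Rxra, which encode the pair, and 7 of its targets outside the Cyp4 family, namely Vnn1, Pdk4, Fabp1, Cd36, Creb3l3, Ehhadh and Acaa1b. These 9 genes were taken by symbol from the 16821 genes listed, and all 9 were found.

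Liver RNA was sequenced from 12 adult male C57BL/6J mice with no transgene, 6 sedentary control (Con) mice and 6 chronic exercise (Exe) mice given 6 weeks of moderate treadmill running. All mice ate freely, were handled in their dark phase and were killed within a day of the last run, and the study used principal component analysis to exclude outlying samples before the 12 were kept. Each mouse gave its own library. The values are FPKM (fragments mapped, scaled to transcript length and to the total mapped), a level that can be compared between genes because it is per length.

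The livers carried the markers of their label. All 6 hepatocyte markers found were present in every mouse, with Alb between 29517 and 48015 FPKM. Fat and striated muscle, where Cd36 and Pdk4 are also expressed, left almost no trace. The 4 adipose genes found summed to 0.15 to 0.35 FPKM in the Con group and 0.17 to 0.52 FPKM in the Exe group, with Plin1 and Adipoq at 0 in 10 and 8 mice. The 7 muscle genes found summed to 0.26 to 1.02 FPKM and 0.28 to 2.85 FPKM, and Acta1 and Ckm were each at 0 in 10 mice. Other genes of these lists were low but at 0 in no mouse. They were Cfd of the adipose list (0.09 to 0.35 FPKM) and Tnnt2 (0.06 to 2.33 FPKM) and Tnni3 (0.08 to 0.63 FPKM) of the muscle list. FPKM summed to between 735200 and 820107 per mouse, and Spearman's rho across genes lay between 0.981 and 0.987 for the 66 pairs of mice.

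The question was which genes differ between Exe and Con mice. Over 10241 genes with at least 1 FPKM in at least 6 mice, limma on log2(FPKM + 1) with Benjamini-Hochberg adjustment called 0 genes at an adjusted p of 0.05 (0% of those tested). At an unadjusted p of 0.05 it called 636 genes (6.21%), 437 higher (4.27%) and 199 lower (1.94%) in Exe mice. Under quantile normalization the split was 348 higher and 269 lower. Of the 9 genes, 8 passed the filter on low values and Pdk4 did not. None of the 8 reached an adjusted p of 0.05, and 1, Vnn1, passed the unadjusted threshold. One gene of 8 is not far from what the background share gives. The 8 log2 fold changes had a median of -0.07, beside 0.02 over all genes tested, and 7 of the 8 were below 0, where 57.5% of all genes tested were above 0.

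**Figure D1:**
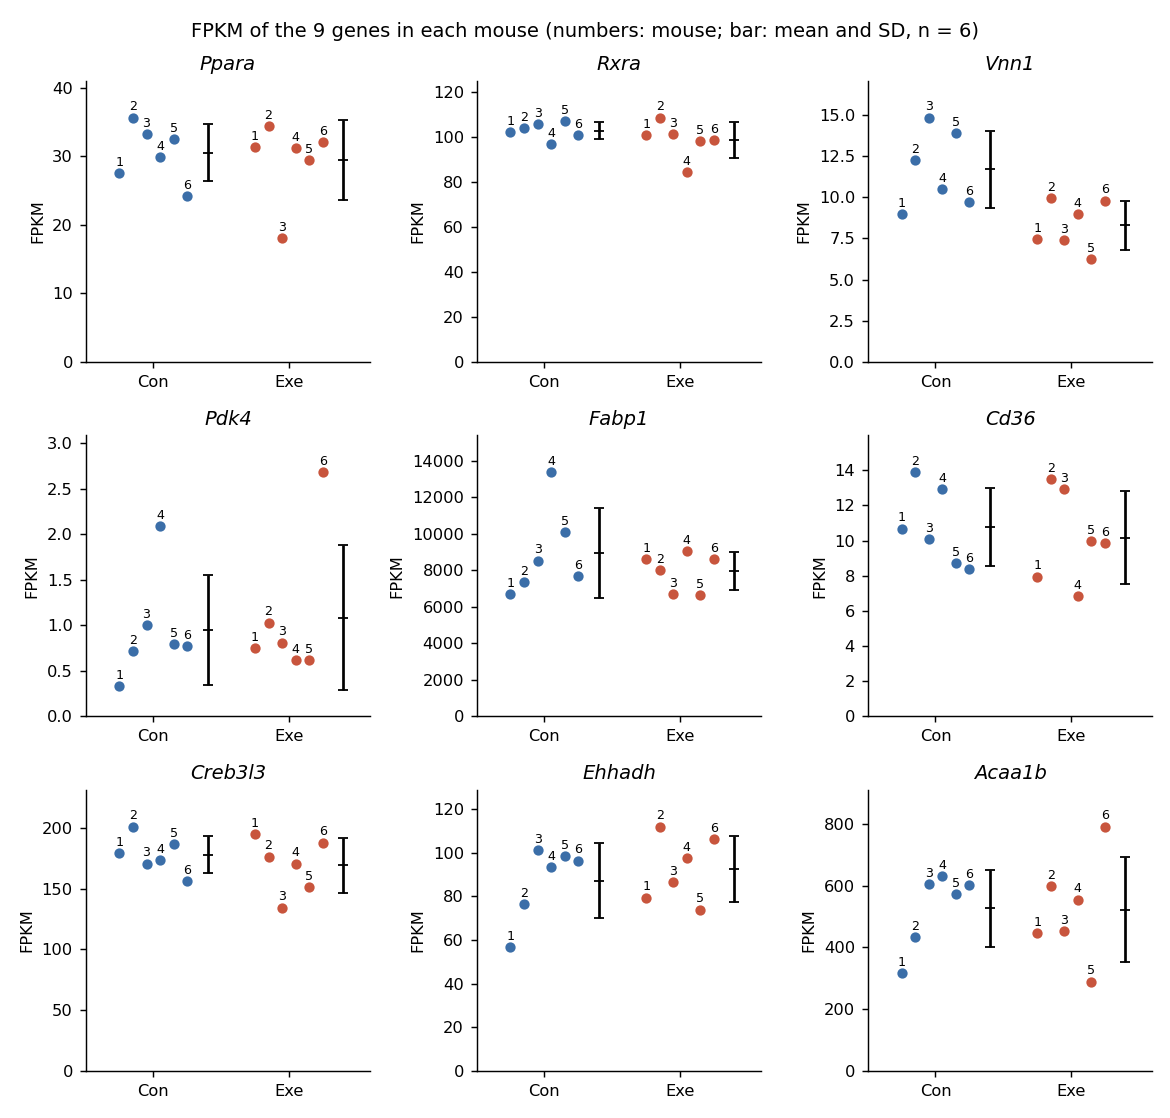
FPKM (y axes, each from 0) of the 9 genes in the 6 Con mice (blue) and 6 Exe mice (red), with the mouse number above each point and the mean and SD of each group beside it. The groups overlap in every panel, and in Vnn1 4 of the 6 Exe mice lie below the lowest Con mouse.

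Neither gene of the receptor pair passed the test. Ppara (NCBI gene ID 19013), the gene of PPAR alpha itself, was at 27.6, 35.6, 33.3, 29.9, 32.5 and 24.2 FPKM in Con 1 to Con 6 and at 31.4, 34.4, 18.1, 31.2, 29.5 and 32.0 FPKM in Exe 1 to Exe 6. One liver, Exe 3, was low, and the other 5 Exe mice lay inside the range of the Con mice. The log2 fold change was -0.07 (standard error 0.14), with a 95% interval from -0.36 to 0.23, which is 0.778-fold to 1.17-fold on this scale (adjusted p = 0.966 from limma). Without Exe 3 it was 0.06. In bulk tissue, fewer cells of a type and less RNA per cell cannot be told apart, here and in all values that follow.

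Rxra (20181), the gene of the partner receptor, was expressed at a higher level than Ppara in every mouse. It stood at 102.2, 103.9, 105.6, 96.6, 106.9 and 100.6 FPKM in Con mice and at 100.8, 108.5, 101.2, 84.4, 98.2 and 98.6 FPKM in Exe mice. Exe 4 was below and Exe 2 above all Con mice. The difference was -0.06 on the log2 scale (standard error 0.06, interval -0.19 to 0.06, adjusted p = 0.931 from limma). The spread of Rxra between mice within groups, an SD of 0.091 on the log2 scale, was larger than that of 13.9% of the genes tested, whereas for Ppara (0.268) this share was 88.5%.

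Vnn1 (22361) encodes vanin-1, a pantetheinase that breaks down pantetheine to pantothenate, the precursor of coenzyme A, and cysteamine. It was at 8.96, 12.3, 14.8, 10.5, 13.9 and 9.68 FPKM in Con mice and at 7.46, 9.96, 7.37, 8.95, 6.25 and 9.79 FPKM in Exe mice. Each of the 6 Exe mice lay below the median of the Con mice (11.4 FPKM), and 4 lay below the lowest Con mouse, so the groups overlapped only through Exe 2 and Exe 6. The mean was 11.7 ± 2.36 FPKM in the Con group and 8.30 ± 1.49 FPKM in the Exe group (SD, n = 6 in each group).

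The log2 fold change of Vnn1 was -0.44 (standard error 0.13, 95% interval -0.73 to -0.16), which is 0.736-fold on the FPKM + 1 scale, and the ratio of the mean FPKM was 0.710. Its unadjusted p from limma was 0.00468, the 63rd smallest of 10241, and the adjusted p was 0.761. By exact permutation over every division of the mice into 6 and 6, two-sided, p was 0.0195, where 0.00216 is the smallest possible. Leaving out any 1 mouse, the difference stayed between -0.51 and -0.37 and the exact permutation p between 0.0108 and 0.0368. The acute-phase list, described further on, was lower in Exe mice for all 8 of its genes (median log2 fold change -0.69, of which 0 reached an unadjusted p of 0.05 in limma), and with it as a covariate the difference of Vnn1 was -0.50 (unadjusted p = 0.00136 from limma, adjusted p = 0.493).

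Vnn3, the paralog of Vnn1, lay on the other side. Its level was 27.3 ± 3.45 FPKM in the Con group and 34.3 ± 4.25 FPKM in the Exe group (SD, n = 6), and the log2 fold change was 0.32 (standard error 0.09, unadjusted p = 0.00433 and adjusted p = 0.756 from limma). The ratio of Vnn1 to Vnn3 within a mouse was 0.380, 0.477, 0.441, 0.401, 0.490 and 0.370 in Con mice and 0.262, 0.262, 0.196, 0.255, 0.168 and 0.332 in Exe mice. Every Exe mouse was below every Con mouse in this ratio, which was chosen after the values were seen and is given without a test. A ratio of genes that differ in opposite directions separates groups more readily than either gene alone. Groups did not overlap in 26 of the 10241 genes tested (0.254%), and the share among ratios of genes was not computed. Vnn1 transcripts share 0% of their 50-base words with transcripts of other genes in GENCODE M21, so the 2 vanin genes share no stretch of this length.

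Fabp1 (14080), which encodes the liver fatty acid binding protein, was the most abundant of the 9 genes and ranked 14 by mean FPKM among all genes listed. Its levels were 6711, 7342, 8542, 13389, 10083 and 7682 FPKM in the Con group and 8623, 8030, 6710, 9049, 6629 and 8640 FPKM in the Exe group. Con 4 was far above the rest, and no Exe mouse was above Con 5. The log2 fold change was -0.14 (standard error 0.16, interval -0.48 to 0.19, adjusted p = 0.937 from limma). It was 0.0005 under quantile normalization and -0.25 with the acute-phase covariate (unadjusted p = 0.0179, adjusted p = 0.790 from limma).

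Cd36 (12491) encodes a fatty acid translocase of the plasma membrane. It was at 10.7, 13.9, 10.1, 12.9, 8.74 and 8.36 FPKM in Con mice and at 7.95, 13.5, 12.9, 6.86, 9.95 and 9.86 FPKM in Exe mice. Both groups spanned nearly the same range, and the log2 fold change was -0.09 (standard error 0.16, interval -0.43 to 0.25, adjusted p = 0.961 from limma). Endothelial and Kupffer cells also express Cd36. The 7 endothelial genes summed to 51.9 to 83.0 FPKM in the Con group and 60.6 to 72.7 FPKM in the Exe group, and the 6 Kupffer cell genes to 129.9 to 242.6 FPKM and 90.6 to 228.7 FPKM, and their part in the level of Cd36 was not tested.

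Pdk4 (27273), the kinase that inactivates pyruvate dehydrogenase and is strongly raised by fasting, was close to the lower limit of the data. It was at 0.33, 0.72, 1.0, 2.09, 0.79 and 0.77 FPKM in Con mice and at 0.75, 1.03, 0.81, 0.62, 0.62 and 2.68 FPKM in Exe mice. One liver in each group, Con 4 and Exe 6, was far above the others, and the median was 0.78 FPKM in both groups. In a fit without the filter the log2 fold change was 0.08 (standard error 0.22, interval -0.41 to 0.57, adjusted p = 0.973 from limma), and it was -0.10 without Exe 6. The added 1 FPKM understates changes at this level.

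Creb3l3 (208677) encodes CREB-H, a membrane-bound transcription factor of hepatocytes that drives lipid genes such as Fgf21 and Apoa4. It was at 179.1, 201.03, 170.6, 173.6, 186.9 and 156.3 FPKM in Con mice and at 195.01, 176.3, 134.3, 170.5, 151.2 and 187.8 FPKM in Exe mice. Exe 3, the mouse with the lowest Ppara, was also the lowest here, and Exe 5 was next. The log2 fold change was -0.08 (standard error 0.09, interval -0.27 to 0.12, adjusted p = 0.939 from limma).

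Ehhadh and Acaa1b encode enzymes of peroxisomal beta-oxidation, the bifunctional enzyme and a thiolase. Ehhadh (74147) was at 56.8, 76.7, 101.1, 93.6, 98.5 and 96.4 FPKM in Con mice and at 79.5, 112.02, 86.4, 97.7, 74.01 and 106.3 FPKM in Exe mice. It was lowest in Con 1, and 2 Exe mice, Exe 2 and Exe 6, lay above all Con mice. The log2 fold change was 0.10 (standard error 0.14, interval -0.21 to 0.41, adjusted p = 0.954 from limma), and it was -0.02 without Con 1.

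Acaa1b (235674) was at 315.6, 433.2, 605.7, 630.2, 572.4 and 601.1 FPKM in Con mice and at 447.02, 598.4, 452.5, 554.5, 289.2 and 790.7 FPKM in Exe mice. Con 1 and Exe 5 were low and Exe 6 was high, which gave this gene, after Pdk4, the widest range over the 12 mice of the 9 genes, 2.73-fold from lowest to highest. The log2 fold change was -0.04 (standard error 0.22, interval -0.52 to 0.44, adjusted p = 0.989 from limma), and it was 0.12 without Exe 5. Of the 50-base words of Acaa1b transcripts, 39.6% are also found in transcripts of other genes. The largest share is with its paralog Acaa1a (30.5%), so some reads may be split between these genes. Acaa1a was far steadier, at 129.9 ± 4.33 FPKM in the Con group and 127.1 ± 13.04 FPKM in the Exe group (SD, n = 6).

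**Figure D2:**
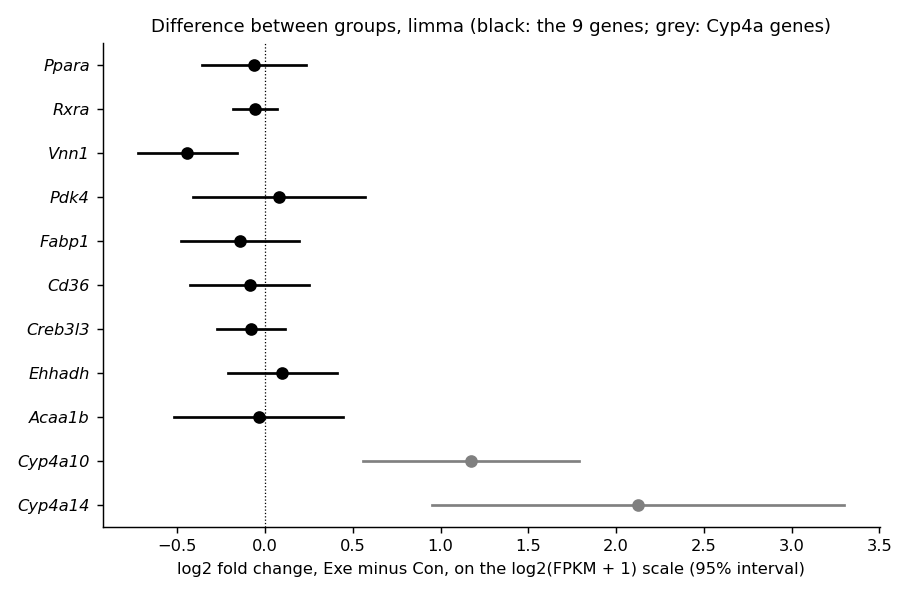
Log2 fold change of each gene, Exe minus Con on the log2(FPKM + 1) scale (x axis), with its 95% interval from limma, for the 9 genes (black, Pdk4 from the fit without the filter) and for Cyp4a10 and Cyp4a14 (grey). Among the 9 genes the interval of Vnn1, from -0.73 to -0.16, is the only one that leaves out 0, while both Cyp4a intervals lie above 0.

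The Cyp4a genes of the same livers, already known from earlier results to stand high, are given beside the 9 genes. The log2 fold changes of Cyp4a10 and Cyp4a14, fatty acid omega-hydroxylases and textbook targets of PPAR alpha, were 1.17 (interval 0.56 to 1.79) and 2.13 (interval 0.95 to 3.30), with adjusted p of 0.580 and 0.657 from limma. Cyp4a10 transcripts share 29.8% of their 50-base words with other genes, most of all with Cyp4a32 (24.5%). The upper limits of the 9 intervals ran from -0.16 for Vnn1 to 0.57 for Pdk4, and for each of the 9 genes except Pdk4 the upper limit was below the lower limit of both Cyp4a intervals. Pdk4 was just past that of Cyp4a10 (0.56) and below that of Cyp4a14. The difference between these genes and the Cyp4a genes was not tested.

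PPAR alpha and RXR alpha are known to bind a direct repeat of AGGTCA spaced by 1 base, AGGTCANAGGTCA, and it was searched on both strands of RefSeq promoters (250 bases before to 50 after a start site, GRCm38.p6), with mismatches counted over the 12 fixed letters. The table held 10 promoters for 8 of the 9 genes, Vnn1 being the one without an entry. Fabp1 held the closest match, with 1 mismatch, and 0.554% of the 32851 promoters in the table have at most 1. It lay between bases -67 and -55 and is marked in capitals in the 250 bases before the start, chr6:71199629-71199878, plus strand.
Fabp1: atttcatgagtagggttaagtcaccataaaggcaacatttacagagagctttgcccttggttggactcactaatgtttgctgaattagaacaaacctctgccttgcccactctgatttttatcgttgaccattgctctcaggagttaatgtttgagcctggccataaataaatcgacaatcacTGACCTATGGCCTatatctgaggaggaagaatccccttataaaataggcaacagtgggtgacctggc

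A match with 2 mismatches, which 3.86% of promoters have at most, was found for Rxra (the second of its start sites in the table, bases -75 to -63), Cd36 (-63 to -51) and Creb3l3 (the first of its start sites in the table, -209 to -197). These matches are given on the strand of each gene, with all letters in capitals.
Rxra: TGGTCATAGGCCA
Cd36: TGGCCTCTGACTT
Creb3l3: AGGGGAGAGGTCA

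Ehhadh and Acaa1b, whose levels varied together between mice as described next, had no match with fewer than 4 mismatches in this window, nor did Ppara and Pdk4. Their 250 bases before the start, both on the minus strand, at chr16:21787835-21788084 for Ehhadh and chr9:119157094-119157343 for Acaa1b, are shown to let both be compared with Fabp1. The absence of these letters here says nothing on binding elsewhere.
Ehhadh: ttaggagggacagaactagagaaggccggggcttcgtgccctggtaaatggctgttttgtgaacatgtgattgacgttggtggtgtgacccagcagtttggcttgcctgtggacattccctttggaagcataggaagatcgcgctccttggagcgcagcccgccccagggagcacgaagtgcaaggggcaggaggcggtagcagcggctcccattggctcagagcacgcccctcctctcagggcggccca
Acaa1b: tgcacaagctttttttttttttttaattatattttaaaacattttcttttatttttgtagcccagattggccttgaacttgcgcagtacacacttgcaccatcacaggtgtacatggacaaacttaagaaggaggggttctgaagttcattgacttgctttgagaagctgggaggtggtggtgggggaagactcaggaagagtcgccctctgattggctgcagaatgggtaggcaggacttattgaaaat

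Mouse by mouse, the 9 genes did not move as one block, but some pairs did. Pearson's r and Spearman's rho of log2(FPKM + 1) were computed for 54 relations, the 36 pairs of the 9 genes and the 18 pairs with Cyp4a10 or Cyp4a14, with p adjusted over all 54. The values of one mouse share a library, and p-values within groups are not adjusted. With Pearson's r, 1 relation passed an adjusted p of 0.05 (7 had an unadjusted p at or under 0.05), that of the peroxisomal enzymes Ehhadh and Acaa1b (r = 0.880, permutation p = 0.00014, adjusted 0.00756). Spearman's rho was 0.804 (permutation p = 0.00243, adjusted 0.0656). Without Con 1 and Exe 5, the mice farthest from the median of Ehhadh, r was 0.837 (permutation p = 0.00264). Within groups r was 0.978 in Con mice and 0.892 in Exe mice (exact permutation p = 0.0264 and 0.0125, n = 6).

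**Figure D3:**
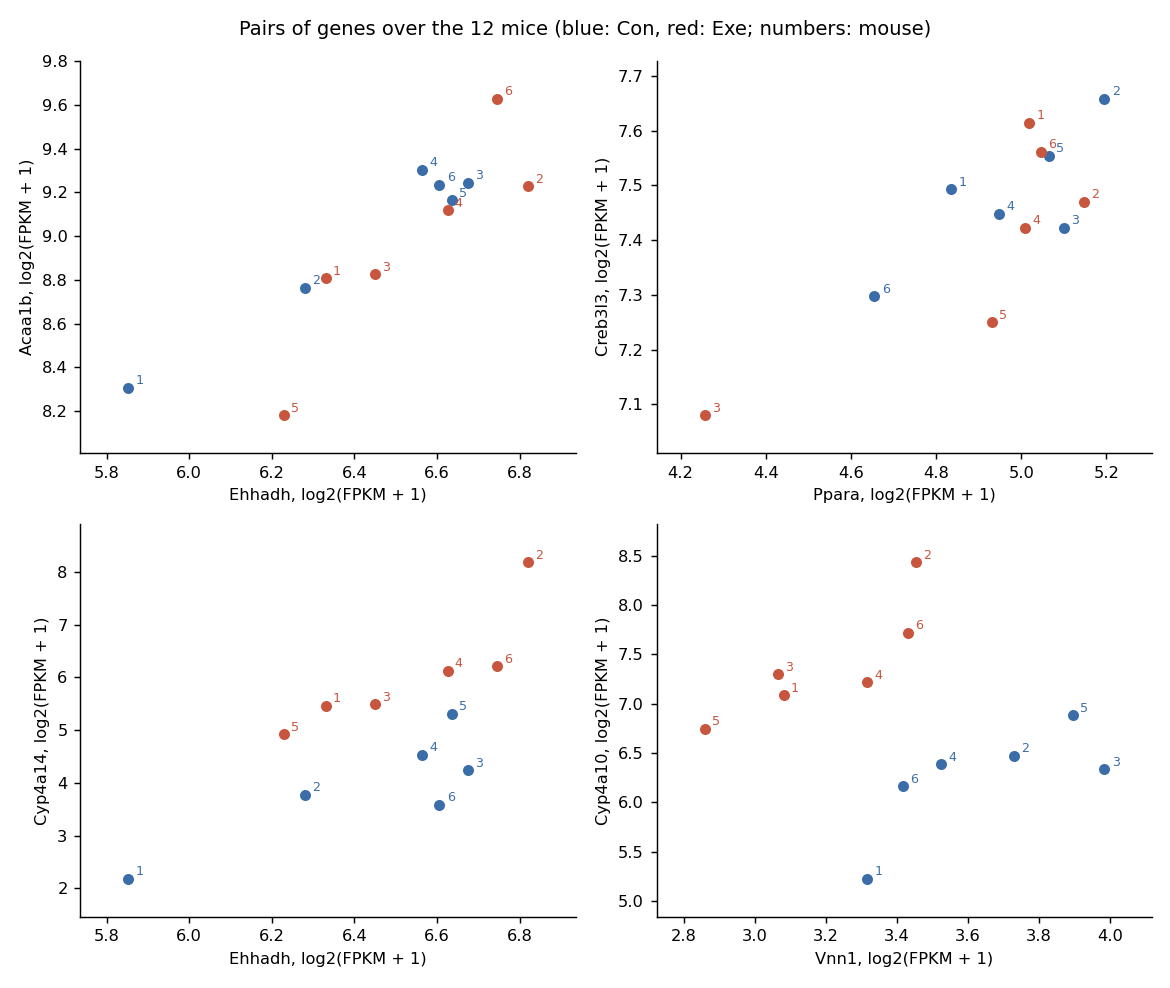
Log2(FPKM + 1) of 4 pairs of genes over the 12 mice, Con in blue and Exe in red with the mouse number beside each point. Ehhadh and Acaa1b rise together with both groups on one line (r = 0.880), whereas Vnn1 and Cyp4a10 rise together within each group (r = 0.736 in Con and 0.845 in Exe mice) but along 2 lines set apart, so that r over all mice is -0.14.

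Ppara and Creb3l3 had r = 0.820 (permutation p = 0.00207, adjusted 0.0559) and rho = 0.664 (permutation p = 0.0212, adjusted 0.214). This relation rested on Exe 3 and Con 6, the mice farthest from the median of Ppara, for without both r was 0.455 (permutation p = 0.186). Within groups r was 0.798 in Con mice and 0.829 in Exe mice (exact permutation p = 0.0556 and 0.0278, n = 6). Exe 3 was also the mouse with the lowest Dbp (23.5 FPKM, against 30.8 to 98.1 FPKM in the others) and the highest Arntl (3.86 FPKM, against 0.38 to 2.87 FPKM), which are clock genes of opposite phase. Over the 12 mice Ppara and Dbp had r = 0.344 (permutation p = 0.281, adjusted 0.653 over 18) and rho = 0.133 (permutation p = 0.683, adjusted 0.806), and r was -0.16 without Con 6 and Exe 3 (permutation p = 0.662). Taken by group, r was -0.55 in Con mice and 0.743 in Exe mice (exact permutation p = 0.271 and 0.0542, n = 6).

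Pdk4 and Acaa1b had rho = 0.858 (permutation p = 0.00086, adjusted 0.0464) and r = 0.740 (permutation p = 0.0084, adjusted 0.151). Under quantile normalization rho was 0.734 and no longer passed (adjusted p = 0.122, permutation test). Without Con 4 and Exe 6, r was 0.731 (permutation p = 0.0142). Within groups r was 0.743 and 0.756 in Con and Exe mice (exact permutation p = 0.125 in both, n = 6). Both genes were highest in Exe 6, and in Con mice both were lowest in Con 1 and highest in Con 4.

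Some relations with the Cyp4a genes showed inside the groups. With group means subtracted, the receptor genes did not pass an adjusted p of 0.05 with Cyp4a10 or Cyp4a14 (permutation test). There r was 0.374 and 0.436 for Ppara and 0.407 and 0.298 for Rxra. Ehhadh and Cyp4a14 had r = 0.702 over all mice (permutation p = 0.0126, adjusted 0.169) and rho = 0.587 (permutation p = 0.0496, adjusted 0.383), and r fell to 0.537 without Con 1 and Exe 5 (permutation p = 0.110). Within groups r was 0.841 in Con mice and 0.866 in Exe mice (exact permutation p = 0.0444 and 0.00694, n = 6). Cyp4a14 was already known to stand high in Exe mice, and 5 of them lay above all Con mice in it. Pairs of mice with a like level of Ehhadh, picked as examples, therefore differed in Cyp4a14 as the groups did. Con 5 and Exe 4, with 98.5 and 97.7 FPKM of Ehhadh, had 38.8 and 69.0 FPKM of Cyp4a14, and Con 2 and Exe 1, with 76.7 and 79.5 FPKM, had 12.7 and 43.0 FPKM.

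Vnn1 was singled out here after its values within groups were seen. Over all mice Vnn1 and Cyp4a10 had r = -0.14 (permutation p = 0.667, adjusted 0.997) and rho = -0.22 (permutation p = 0.484, adjusted 0.747), and r was -0.09 without Con 3 and Exe 5 (permutation p = 0.796). Within groups r was 0.736 in Con mice and 0.845 in Exe mice (exact permutation p = 0.0583 and 0.0278, n = 6). With the mean of each group subtracted, r over the 12 mice was 0.786 (permutation p = 0.00159, adjusted 0.0172 over 54) and rho was 0.727 (adjusted p = 0.0436). Within groups, mice with more Vnn1 thus tended to have more Cyp4a10, with exceptions in both groups. Con 3 had the most Vnn1 but less Cyp4a10 (79.7 FPKM) than Con 2, Con 4 and Con 5 (82.6 to 116.9 FPKM). Exe 3 had more Cyp4a10 (156.4 FPKM) than Exe 1 and Exe 4 (134.9 and 147.9 FPKM) but less Vnn1. Between groups the mean of Vnn1 was lower and that of Cyp4a10 higher in Exe mice. With group means subtracted, 9 of the 54 relations passed an adjusted p of 0.05 by Pearson's r. They were Ppara with Creb3l3, Ehhadh with Acaa1b, Pdk4 with Acaa1b, Vnn1 with Ehhadh (r = 0.745), Vnn1 and Ehhadh each with both Cyp4a genes, and Acaa1b with Cyp4a10 (r = 0.724). By Spearman's rho 15 passed with group means subtracted, these 9 among them. The others were Ppara with Vnn1 (rho = 0.734, adjusted p = 0.0405, permutation test), Pdk4 with Ehhadh (0.827), and Acaa1b and Fabp1 with Cyp4a14 (0.790 and 0.713). Pdk4 also passed by rho with Cyp4a10 and Cyp4a14 (0.813 and 0.781). Without subtracting group means, the 12 mice gave Vnn1 and Ehhadh r = 0.397 (permutation p = 0.199, adjusted 0.615) and rho = 0.503 (permutation p = 0.0970, adjusted 0.406). In Exe mice alone they had r = 0.977 (exact permutation p = 0.00417, n = 6), and in Con mice 0.598 (exact permutation p = 0.210).

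The livers differed widely in acute-phase genes, which the liver makes under inflammation. The sum of 8 such genes ran from 4110 FPKM in Con 4 to 34596 FPKM in Con 1, and in Exe mice from 4319 FPKM in Exe 4 to 33771 FPKM in Exe 5. Both mice with the highest sums, Con 1 and Exe 5, were those with the lowest Ehhadh and Acaa1b of their groups. The relations of the 9 genes with the mean log2 level of this list and with Dbp were computed after these values were seen, 18 in all. Over all mice, none of the 9 relations with Dbp had an unadjusted p at or under 0.05 (permutation test) by r or rho. Within Con mice, Cd36 and Dbp had r = -0.96 (exact permutation p = 0.00556, n = 6). In Exe mice r was -0.33 (exact permutation p = 0.508, n = 6), and over all mice -0.47 (permutation p = 0.125). This pair was picked for its p in Con mice, the smallest within a group among the 18 relations. With the acute-phase list, Fabp1 had rho = -0.83 (permutation p = 0.00173, adjusted 0.0311 over 18). Its r was -0.75 (permutation p = 0.0028, adjusted 0.0504), and -0.72 without Con 4 and Exe 5 (permutation p = 0.0219). Within groups r was -0.91 in Con mice and -0.79 in Exe mice (exact permutation p = 0.00694 and 0.0583, n = 6).

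For Ehhadh and Acaa1b the relation with the acute-phase list rested on the extreme mice. Their r was -0.65 and -0.62 (permutation p = 0.0189 and 0.0306, adjusted 0.170 and 0.183) and rho was -0.57 and -0.50 (permutation p = 0.0606 and 0.0993, adjusted 0.545 and 0.595). Without Con 1 and Exe 5, r was -0.36 and -0.22 (permutation p = 0.311 and 0.531). Within groups r lay between -0.72 and -0.59 for both genes, with exact permutation p from 0.0931 to 0.146 (n = 6). In the comparison of groups without Con 1 and Exe 5, the log2 fold change of Vnn1 was -0.44, that of Ehhadh 0.04 and that of Acaa1b -0.02.

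**Figure D4:**
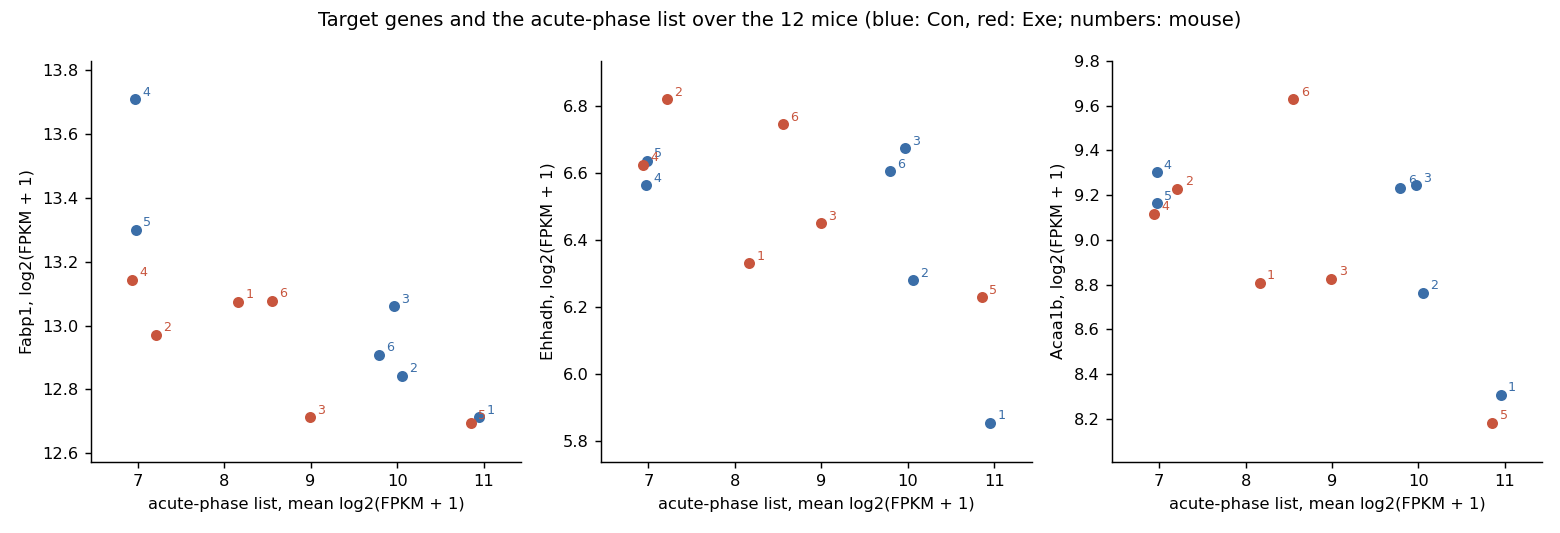
Log2(FPKM + 1) of Fabp1, Ehhadh and Acaa1b (y axes) against the mean log2(FPKM + 1) of 8 acute-phase genes (x axis) over the 12 mice, Con in blue and Exe in red with the mouse number. All 3 genes run downward from left to right, with Con 1 and Exe 5 at the far right, and for Ehhadh and Acaa1b r weakens to -0.36 and -0.22 without these mice.

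The genes whose pattern over the 12 mice was most like that of each gene were taken by Pearson's r with group means subtracted, as a description without a test. For Creb3l3 they were Slc22a5, the carnitine transporter (r = 0.930), Acaa1a, the peroxisomal thiolase (0.896), and Epha2, a receptor kinase (0.889). For Ppara they were Slc30a1, a zinc exporter (0.957), BC005537 (0.912) and Nras, a small GTPase (0.905). For Vnn1 they were Acad11, an acyl-CoA dehydrogenase (0.935), Pnpla8, a phospholipase (0.909), and Uvrag, an autophagy gene (0.897). Without subtracting group means, r for these genes of Vnn1 was 0.711, 0.716 and 0.658, while for Creb3l3 and Slc22a5 it was 0.926.

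Ehhadh and Acaa1b shared 1 of their 3 nearest genes, Tbc1d13, at r = 0.917 and 0.918. The others were Zfp598 (0.930) and Cyp3a25, a drug-metabolizing P450 (0.922), for Ehhadh, and Ces1d, a carboxylesterase (0.933), and Mme, a membrane peptidase (0.916), for Acaa1b. For Fabp1 they were Slc22a30 (0.901) and Slc22a28 (0.901), of the organic anion transporter family, and Larp1b (0.898). For Pdk4 they were the kinases Dyrk1b (0.905) and Dapk1 (0.882) and the nuclear receptor coactivator Pnrc1 (0.901). For Cd36 they were Pelp1 (0.923), Prpf4 (0.865) and Tmx2 (0.849), and for Rxra Emc10 (0.857), Tex261 (0.855) and Lcat, which esterifies plasma cholesterol (0.835). Without subtracting group means, r was 0.925, 0.861 and 0.648 for those of Cd36, and 0.271, 0.592 and 0.580 for those of Rxra. With group means subtracted, an r above 0.8 was reached by 97 genes for Ehhadh and 94 for Acaa1b, but by 10 for Rxra and 15 for Cd36. The count that a gene taken at random would reach was not computed.

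The other genes of the pathway were counted in lists by role. Among receptors and cofactors, 15 could be tested, 9 of them with a log2 fold change above 0 and 6 below (median log2 fold change 0.0065), and 0 passed an unadjusted p of 0.05 in limma. The smallest p was that of the coactivator Ppargc1b (log2 fold change -0.14, unadjusted p = 0.160). The 11 peroxisomal targets were 5 higher and 6 lower (median -0.02), again with 0 at an unadjusted p of 0.05. Pex11a, which divides peroxisomes, came nearest (-0.21, unadjusted p = 0.0896).

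Of 15 mitochondrial targets, 10 were higher and 5 lower (median 0.04), and 1 passed the unadjusted threshold. It was Ucp2, an uncoupling protein of the inner membrane that is also expressed in Kupffer cells, at 23.7 ± 5.75 FPKM in the Con group and 17.9 ± 2.84 FPKM in the Exe group (SD, n = 6), with a log2 fold change of -0.37 (unadjusted p = 0.0261, adjusted p = 0.793 from limma). Of 11 genes for uptake and activation of fatty acids, 7 were higher and 4 lower (median 0.15), and the 1 that passed was the transporter Slc27a1 (-0.31, unadjusted p = 0.00613, adjusted p = 0.789 from limma). The 8 genes for storage and secretion that were tested were 2 higher and 6 lower (median -0.11), with 0 at an unadjusted p of 0.05, and Plin2, the coat protein of lipid droplets, came nearest (-0.23, unadjusted p = 0.188).

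Over these 4 target lists together, 45 genes were tested, of which 24 had a log2 fold change above 0 and 21 below (median 0.0085), with 0 higher and 2 lower at an unadjusted p of 0.05 and 0 at an adjusted p of 0.05 in limma. Over all genes tested, 57.5% were above 0 and 6.21% passed the unadjusted threshold, so these lists were near the background in both.

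The 8 genes of coenzyme A synthesis and recycling, the pathway that vanin-1 feeds, were 6 higher and 2 lower (median 0.02), beside 57.5% higher among all genes tested. The unadjusted threshold was passed by 2 of these 8 genes and by 6.21% of all genes tested. Beside Vnn3, Pank4, of the pantothenate kinase family, passed the unadjusted threshold, at 3.88 ± 0.334 FPKM in the Con group and 4.51 ± 0.475 FPKM in the Exe group (SD, n = 6; log2 fold change 0.17, unadjusted p = 0.0262, adjusted p = 0.793 from limma). Of 6 genes around pyruvate dehydrogenase, the target of Pdk4, 5 were higher and 1 lower (median 0.11), with 0 at an unadjusted p of 0.05 in limma and Pdhb nearest (0.18, unadjusted p = 0.0949). Of 6 targets of CREB3L3, 3 were higher and 3 lower (median 0.04), and 1 passed, the C-reactive protein gene Crp (0.20, unadjusted p = 0.0179, adjusted p = 0.793 from limma). The clock list had 5 genes higher and 6 lower (median -0.0013), 0 of them at an unadjusted p of 0.05, with Ciart nearest (-1.05, unadjusted p = 0.0524 from limma).

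**Figure D5:**
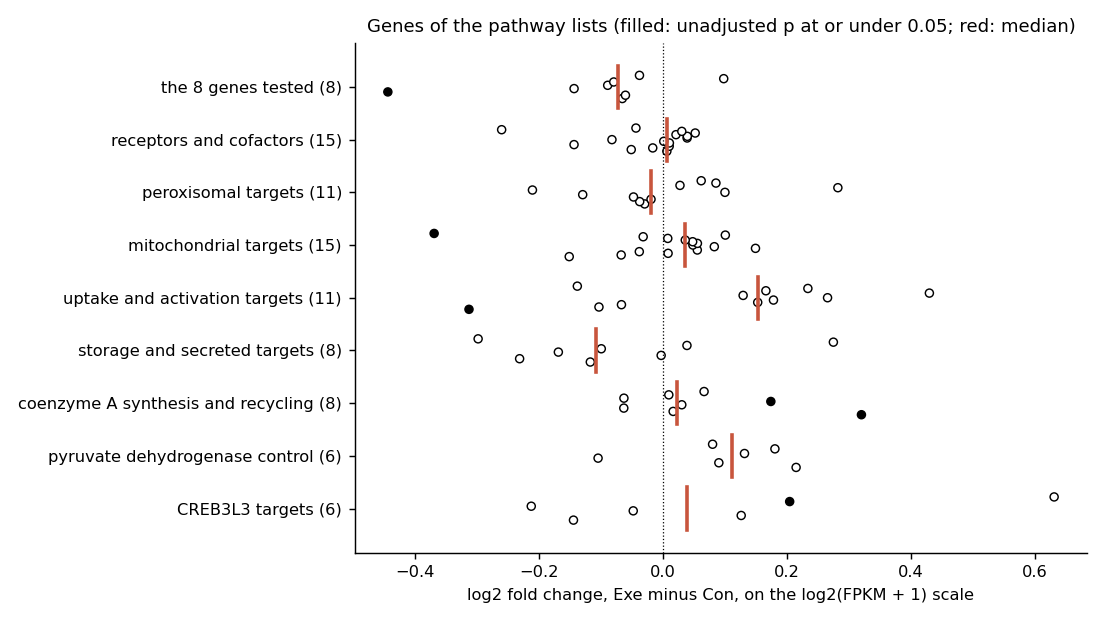
Log2 fold change of each gene, Exe minus Con on the log2(FPKM + 1) scale (x axis), for the 8 genes tested and for 8 lists of related genes (rows, number tested in brackets). Filled points have an unadjusted p at or under 0.05 in limma and red bars are medians, which lie between -0.11 and 0.15, with Vnn1 (-0.44) the lowest point of all rows.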

How the data were processed

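Liver RNA of 12 mice was sequenced with paired reads on the DNBseq platform. The authors removed low-quality reads and used HISAT with GRCm39 for alignment, and the values deposited are FPKM to 2 decimals. The submitters' processing notes also list Bowtie2 and the build mm10. Which tool computed FPKM, and whether mice were scaled to each other, is not given in the sources used here. The study's methods name a test that needs counts, so limma was used instead.

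Depth in reads is unknown, so no counting error is given. From 31 genes whose low FPKM stepped in whole multiples, relative depth lay between 0.984 and 1.02. The tolerances of this estimate, and the range of depths simulated to test it, were changed after its first outputs were seen, so that more genes could be used, and no result rests on it.

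The scale was log2(FPKM + 1). Genes with at least 1 FPKM in at least 6 mice entered lmFit, then eBayes with its trend option (limma 3.58.1, R 4.3.3), with group as the only term. Calls needed an adjusted p of 0.05 and, in the stricter count, a log2 fold change beyond 1 either way. The fit, the permutation tests and the depth estimate were tested on simulated data. Single genes had an exact two-sided permutation test, and relations 100000 two-sided permutations (720 orders within a group, exact), in Python 3.11.15. Promoters came from RefSeq (GRCm38.p6) and transcripts from GENCODE M21, whose build is not that of the FPKM.

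The 9 genes and all lists were chosen with earlier results of these data known. Named were the 9 genes, Cyp4a10, Cyp4a14, Acaa1a and Vnn3, up to 3 genes with the smallest unadjusted p at or under 0.05 in each list or else the 1 with the smallest p, and the 3 genes most like each gene. Fgf21 and Angptl4, the ratio of Vnn1 to Vnn3, the 18 relations with the acute-phase list and Dbp, and the relations described singly were chosen after the values were seen.

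Alternatives were other filters, a pseudocount of 0.1, quantile normalization, median scaling, robust moderation, a replicate block, covariates for the acute-phase list and Dbp, and each mouse left out. Chosen after seeing the data were leaving out Con 1 and Exe 5 together and leaving out each mouse from the relations.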

Additional observations from a re-analysis of the deposited data

Results flagged for a closer look

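In 2 of 18 sets of 6 mice (9 genes in 2 groups) 1 mouse lay far from the rest by Dixon's ratio, where chance gives about 1 in 20. Ppara was at 18.11 FPKM in Exe 3, with the next lowest Exe mouse at 29.5 FPKM (ratio 0.698). Pdk4 was at 2.68 FPKM in Exe 6, with the next highest Exe mouse at 1.03 FPKM (ratio 0.801). Exe 3 had the lowest Dbp of the 12 mice (23.48 FPKM), while over the 12 mice Ppara and Dbp had r = 0.344 and rho = 0.133 (permutation p = 0.281 and 0.683). Exe 6 had the highest Acaa1b of the 12 mice.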

How the results depend on the processing

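Of 196 values of the 9 genes under alternatives, 0 reached an adjusted p of 0.05 in limma and 185 kept their direction, among them every value of Vnn1, Rxra and Creb3l3. With 1 mouse left out, Rxra ran from -0.088 to -0.017 (without Exe 4; -0.113 under quantile normalization), Creb3l3 from -0.122 to -0.015 (without Exe 3) and Fabp1 from -0.218 (without Con 1) to -0.019 (without Con 4). The signs that turned were those of small differences. For Fabp1 the log2 fold change was 0.0005 under quantile normalization, and for Pdk4 it was -0.0337 with the Dbp covariate, under which Cd36 was at -0.217. Leaving out 1 mouse, it ran from -0.128 to 0.0637 for Ppara, from -0.0988 to 0.221 for Pdk4, from -0.171 to 0.0058 for Cd36, from -0.0183 to 0.159 for Ehhadh and from -0.177 to 0.119 for Acaa1b. Over all alternatives the adjusted p of Vnn1 from limma lay between 0.493 and 0.999. Genes past both thresholds numbered 0 throughout. Without the filter 1 gene had an adjusted p under 0.05 whatever its fold change, and the count at an unadjusted p of 0.05 ran from 418 without Exe 2 to 910 without Exe 5. Of the relations over mice, 9 passed an adjusted p of 0.05 with group means subtracted and 2 under quantile normalization by Pearson's r, against 15 and 0 by Spearman's rho, and from 1 to 2 with 1 mouse left out, where the second, without Con 1, was Ppara with Creb3l3 (r = 0.843, adjusted p = 0.0392, permutation test). With group means subtracted the relations of Vnn1 with Cyp4a10 and Cyp4a14 turned positive (r = 0.786 and 0.769), a step that removes the difference between groups by construction. Permutations of such values ignore the means that were removed, so their p-values are somewhat too small. The replicate numbers did not pair the mice, since deviations of same-numbered mice correlated from -0.478 to 0.165, and with the replicate block 567 genes passed an unadjusted p of 0.05 and Vnn1 had an adjusted p of 0.863. Levels near 1 FPKM, as for Pdk4, and sequence shared with paralogs, as for Acaa1b and Cyp4a10, limit these values.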

Other observations

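A pair of secreted products known to be induced by PPAR alpha was looked at after its values were seen. Fgf21, the hormone that signals fasting, was at 0.17, 0.67, 0.91, 1.74, 2.26 and 0.09 FPKM in the Con group and at 0.25, 0.85, 0.50, 2.37, 0.41 and 0.67 FPKM in the Exe group. It was below the filter on low values, and Con 4, Con 5 and Exe 4 stood above the rest. Angptl4, an inhibitor of lipoprotein lipase, was at 63.3 ± 29.04 FPKM in the Con group and 55.7 ± 19.2 FPKM in the Exe group (SD, n = 6). The Exe mice, from 29.3 to 81.1 FPKM, lay inside the wider range of the Con mice, from 25.6 to 102.5 FPKM. Con 2 (102.5 FPKM) and Con 5 (90.1 FPKM) were above all Exe mice.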
